A study of Mus musculus with 6 samples.

Results

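The outermost megabase at the distal end of each mouse autosome, the subtelomeric stretch, is described here for 2 oxidised forms of 5-methylcytosine mapped at single bases. A site, meaning a cytosine listed with its strand and read count, belonged to the last megabase of chromosomes 1 to 19 if it lay within 1000000 bases of the last listed 5-hydroxymethylcytosine (5hmC) base of its chromosome. These 19 regions are 0.787% of the autosomal length between the first and last listed bases and 19 of 2406 windows of 1 Mb. They held 115626 of the 20807956 listed 5hmC cytosines and 34128 of the 6248342 listed 5-formylcytosine (5fC) cytosines. Those totals include sites outside the autosomes. Of the autosomal sites alone, the regions held 0.566% for 5hmC and 0.552% for 5fC. The DNA came from E14, an established line of mouse embryonic stem cells, grown on gelatin with serum and LIF. The labels describe 6 libraries without treatment or genetic change: at passage 14, 2 technical replicates of 5fC and 2 of 5hmC share a culture, and at passage 12 a separate culture gave 2 of 5hmC. Each mark came as 1 pooled read count per cytosine, so no value has a replicate error and no test could be run. Intervals given below are 95% counting intervals, and chromosomes, windows and sites are not replicates.

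TET enzymes oxidise 5-methylcytosine to 5hmC and then to 5fC, which the glycosylase TDG can remove, so both marks are steps on a route from methylated to unmodified cytosine. Subtelomeres lie between unique sequence and the telomeric repeats, and in mammals they can be rich in repeats and recent duplications and are methylated at CG. Mouse autosomes have their centromere at the start of the numbered sequence, so the last listed base marks the arm end and not the pericentromere. The distance from that base to the telomeric repeats was not measured here. In Pvu-Seal-seq, the enzyme PvuRts1I cuts near modified cytosines and tagged fragments are captured, so each cut end points back to a cytosine. No sequence is shown, because no genome of the build used by the tables (mm9) was at hand.

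In mm9 coordinates the last megabase ran from 196195362 to 197195361 on chromosome 1, the longest autosome, and from 60342343 to 61342342 on chromosome 19, the shortest. The lists of both marks ended near each other: the last listed 5fC base lay within 4367 bases of the last 5hmC base on 17 chromosomes, and it lay 11584 bases inside it on chromosome 9 and 8509 on chromosome 15. The regions held 1460295 5hmC reads and 551770 5fC reads. The median site had 8 5hmC reads both in the last megabases and in the rest, and 12 5fC reads in both. Few cytosines dominated: 3 5hmC and 1 5fC sites had more than 1000 reads, with at most 3503 and 1446.

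Listed sites of both marks were sparser in the last megabase than in the rest of the same chromosomes. Pooled over the 19 chromosomes, the last megabases had 6086 5hmC sites per Mb against 8480 in the rest, a ratio of 0.718 (interval 0.713 to 0.722). For 5fC the values were 1796 and 2568 sites per Mb, a ratio of 0.700 (0.692 to 0.707). The chromosomes differed far more than these intervals: the ratio of last megabase to rest had a median of 0.522 for 5hmC (0.257 to 1.82) and of 0.401 for 5fC (0.140 to 2.08). Both marks were lower in the last megabase on 15 of 19 chromosomes. Among the 2377 windows of 1 Mb in the rest with a listed 5hmC site, 53.6% were below the 5hmC density and 57.5% below the 5fC density of the rest of their chromosome. At least a 1.5-fold deficit (a ratio below 0.67) was found for 11 last megabases (57.9%) with 5hmC, against 37.3% of the windows, and for 11 with 5fC, against 45.5%. An excess above 1.5-fold was found for 2 last megabases with 5hmC, against 23.8% of windows, and for 3 with 5fC, against 27.0%.

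The 19 ends were far less alike than the 19 chromosomes they belong to. Their 5hmC density spanned an 8.32-fold range (1853 to 15416 sites per Mb), whereas the rest of the chromosomes spanned 1.88-fold (6749 to 12678). For 5fC the ranges were 21.2-fold (260 to 5516) and 2.60-fold (1863 to 4845). These ranges set single megabases beside whole chromosomes, and within its own chromosome nearly every end lay among the other windows. The last megabase of 1 chromosome, 18, lay below the 5th percentile of its chromosome's windows and none above the 95th. The median last megabase had 28.4% of the windows of its chromosome below it in 5hmC density, and 14 of the 19 were below their median window.

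**Figure D1:**
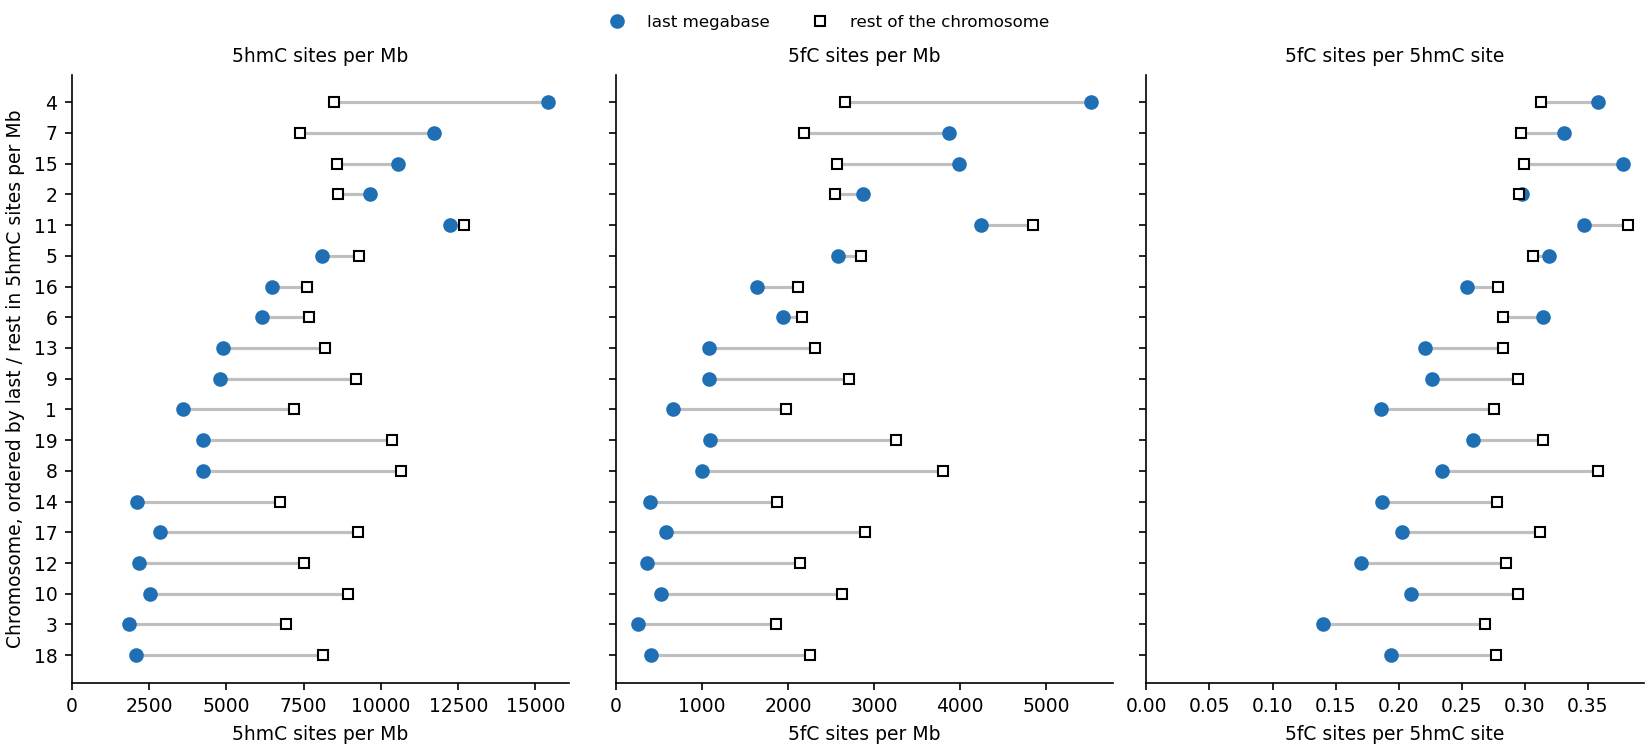
Sites per Mb of 5hmC (left) and 5fC (middle) and 5fC sites per 5hmC site (right) in the last megabase (blue circles) and the rest of the chromosome (open squares), 1 row per chromosome, ordered by the 5hmC ratio. Circles lie left of squares on 15 of 19 chromosomes for both densities, and chromosomes 4, 7, 15 and 2 are the exceptions.

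The 3 densest ends relative to their chromosome were those of chromosomes 4, 7 and 15. The last megabase of chromosome 4 (154630075 to 155630074) had 15416 5hmC and 5516 5fC sites, against 8489 and 2658 per Mb in the rest, ratios of 1.82 and 2.08. It stood above 82.1% of the windows of its chromosome. The end of chromosome 7 (151524321 to 152524320) had 11704 5hmC and 3872 5fC sites, against 7370 and 2188 per Mb, and that of chromosome 15 (102494822 to 103494821) had 10555 and 3991, against 8565 and 2566. The 5hmC ratios were 1.59 and 1.23. Chromosome 2 was the only other one above 1, with 9630 5hmC sites against 8626 per Mb.

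The 3 sparsest ends relative to their chromosome were those of chromosomes 18, 3 and 10. Chromosome 18 (89771363 to 90771362) had 2085 5hmC and 405 5fC sites, against 8126 and 2252 per Mb in the rest, ratios of 0.257 and 0.180. Chromosome 3 (158599273 to 159599272) had 1853 and 260, against 6936 and 1863, and chromosome 10 (128992652 to 129992651) had 2514 and 528, against 8930 and 2634. Chromosomes 12, 17 and 14 followed, with 5hmC ratios between 0.287 and 0.313. In sites alone, chromosomes 14 and 12, with 2112 and 2160 5hmC sites, were sparser than chromosome 10. Chromosomes 8 and 11, the 2 autosomes with the most sites per Mb, did not behave alike: the end of chromosome 8 had 4254 5hmC sites against 10634 per Mb, and that of chromosome 11 had 12231 against 12678.

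The mm9 positions of genes were not used here, so genes at these ends are given by name and order alone, from RefSeq's table of a later build (GRCm38.p6). Whether each lies in the last megabase of mm9 was not established, and names were picked from the 10 outermost protein-coding genes of a chromosome for being well known. On chromosome 4 the outermost name is Vmn2r129, a vomeronasal receptor gene, and those 10 include Noc2l, a chromatin regulator, Isg15, an interferon-induced ubiquitin-like protein, and Agrn, which organises the nerve-muscle synapse. On chromosome 7 they include Ccnd1, a cyclin of the cell cycle, and Fgf4, a growth factor that embryonic stem cells secrete, and on chromosome 15 Itga5, an integrin that binds fibronectin. At the sparse ends they include Wls, the carrier of Wnt proteins, and Rpe65, an enzyme of the visual cycle, on chromosome 3. On chromosome 10 the outermost names are vomeronasal receptor genes of the Vmn2r family, followed by Tespa1, Neurod4 and then olfactory receptors, and on chromosome 18 they include Cd226, a receptor of lymphocytes, and Socs6, an inhibitor of cytokine signalling.

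Pooled over chromosomes, the density of both marks was lowest near the tip and passed the level of the rest in the second megabase, though not on most single chromosomes. In bins of 100 kb pooled over chromosomes, 5hmC had 5121 sites per Mb in the last 100 kb, 0.604 times the rest, and 5fC had 1639, 0.639 times. The lowest bin of both marks was not the tip but lay 200 to 300 kb from the end, at 0.584 times for 5hmC and 0.562 times for 5fC. At the inner border of the megabase, the bin just inside had 7341 5hmC sites per Mb and the bin just outside 6904. The pooled ratios passed 1 for both marks 1500 to 1600 kb from the end, at 1.05 and 1.02, and between 1.9 and 2 Mb they were 1.38 and 1.52. Dense ends weigh most in these sums: in the window 1 to 2 Mb from the end, 8 of 19 chromosomes were above their rest for 5hmC and 6 for 5fC, and the median chromosome was at 0.791 and 0.782 times.

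Farther inside, densities rose well above the chromosome-wide level. The stretch 1 to 10 Mb from the end had 12663 5hmC and 4272 5fC sites per Mb, and the last megabases had 0.481 and 0.420 times these densities. The last megabase had fewer 5hmC sites per Mb than that stretch on 18 of 19 chromosomes, with ratios between 0.196 on chromosome 8 and 1.02 on chromosome 7. It was also below the neighbouring megabase on 15 of 19, the exceptions being chromosomes 6, 7, 13 and 17. The stretch was itself denser than the rest on 16 of 19 chromosomes. How many other windows lie below that stretch, or below their neighbour, was not counted, so whether these counts are particular to the ends was not tested. On chromosomes 17 and 18 the third megabase, with 1637 and 1476 5hmC sites, was sparser than the last, with 2865 and 2085. The window 7 to 8 Mb from the end was the densest of the last 30, at 1.79 times the rest for 5hmC and 1.99 times for 5fC. It was above the rest on 18 of 19 chromosomes for 5hmC, where 53.6% of all windows in the rest were below. Since it was picked for its density, that count follows in part from the choice. The opposite end of the listed chromosomes, the first listed megabase next to the centromeric gap, was sparse too, with 6581 5hmC and 2023 5fC sites per Mb. It differed in mean reads: 16.4 5hmC reads per site, against 12.6 in the last megabases, and 23.3 5fC reads per site, against 16.2. These means keep sites above 1000 reads, which outside the last megabases reach 417382 5hmC and 375023 5fC reads. Whether such sites make up the difference was not tested.

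**Figure D2:**
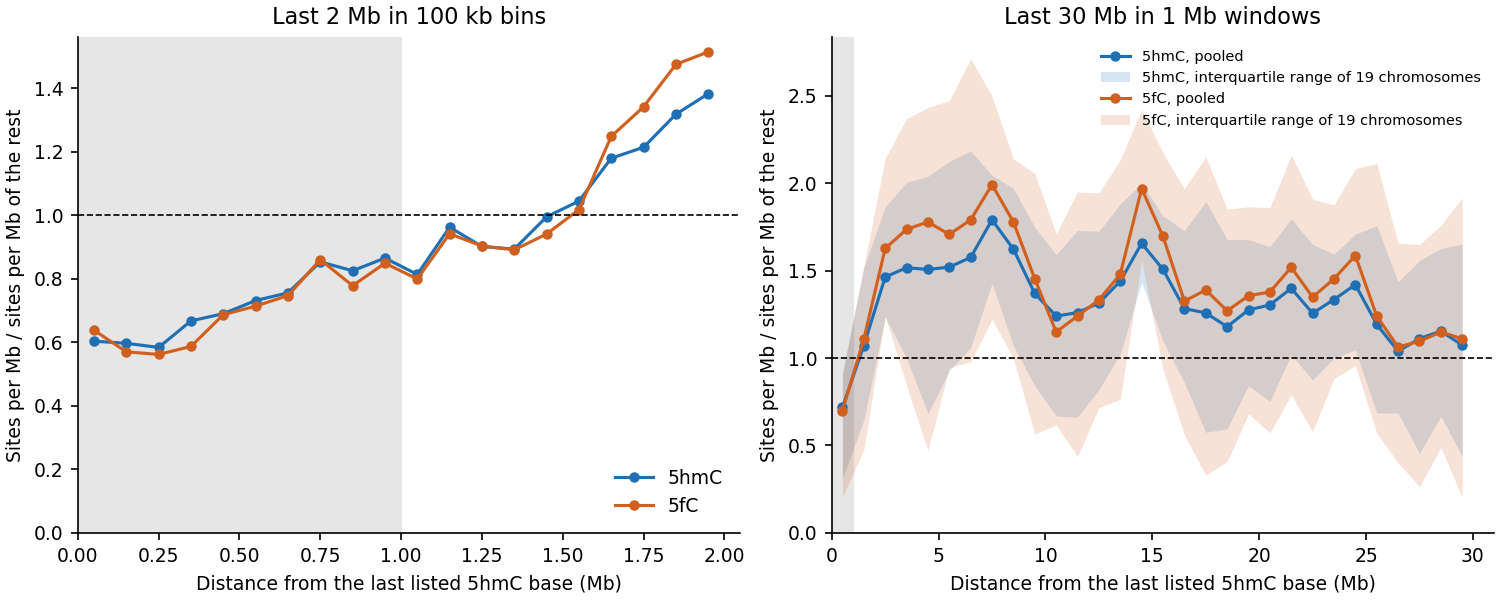
Sites per Mb of 5hmC and 5fC against distance from the last listed 5hmC base, relative to the rest (1, dashed line), in 100 kb bins over 2 Mb (left) and 1 Mb windows over 30 Mb (right). Points are pooled over 19 chromosomes, bands (right) are interquartile ranges over chromosomes and the grey area is the last megabase, where both marks lie below 1 at 0.718 and 0.700 times the rest.

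Stretches without listed sites were not more frequent at the ends than in the rest with its gaps included. The rest here keeps the 10 windows of 1 Mb without any 5hmC site, and each end starts at a listed 5hmC base, so the comparison is uneven. Of 1900 bins of 10 kb in the last megabases, 5 held no 5hmC site (0.263%), against 2.03% of bins in the rest, and 142 held no 5fC site (7.47%), against 7.86%. The listed 5hmC dyads, CG dinucleotides with a listed cytosine on at least 1 strand, were farther apart: the median distance between neighbours was 111 bases in the last megabases and 84 in the rest. For 5fC it was 166 and 126 bases. How many CG dinucleotides these regions hold was not measured, so fewer CG and fewer listed CG cannot be told apart.

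Within the last megabase, 100 kb bins ranged from 96 to 2400 5hmC sites (median 453.5 of 190 bins). The evenest end was that of chromosome 7, whose bins differed by 1.40-fold, and the most uneven that of chromosome 5, at 15.9-fold. The outer 500 kb had fewer 5hmC sites than the inner 500 kb on 12 of 19 chromosomes, with no such count made in other windows. On chromosome 15, for example, the last 100 kb had 197 5hmC sites against a median of 1245 in its other 9 bins. The last 100 kb had the most 5hmC sites of the 10 bins on 4 chromosomes and the fewest on 6, and it had the most 5fC sites on 6 and the fewest on 5. Each of the other 9 bins was the highest in 5hmC on 0 to 4 chromosomes and in 5fC on 0 to 3. On chromosome 18 the last 100 kb had 577 5hmC sites against a median of 171 in the other bins, and on chromosome 19 it had 753 against 373.

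The 3 bins with the most 5hmC sites were on chromosome 4 from 154630075 to 154730074 with 2400 sites, on chromosome 4 from 155530075 to 155630074 with 1865, and on chromosome 11 from 120939005 to 121039004 with 1778. Their 5fC sites numbered 926, 670 and 716. The chromosome 4 bin with 1865 sites is the very last 100 kb of that chromosome. In it the CG share of 5hmC sites was 71.0%, and 43.3% of 5hmC dyads were listed on both strands.

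**Figure D3:**
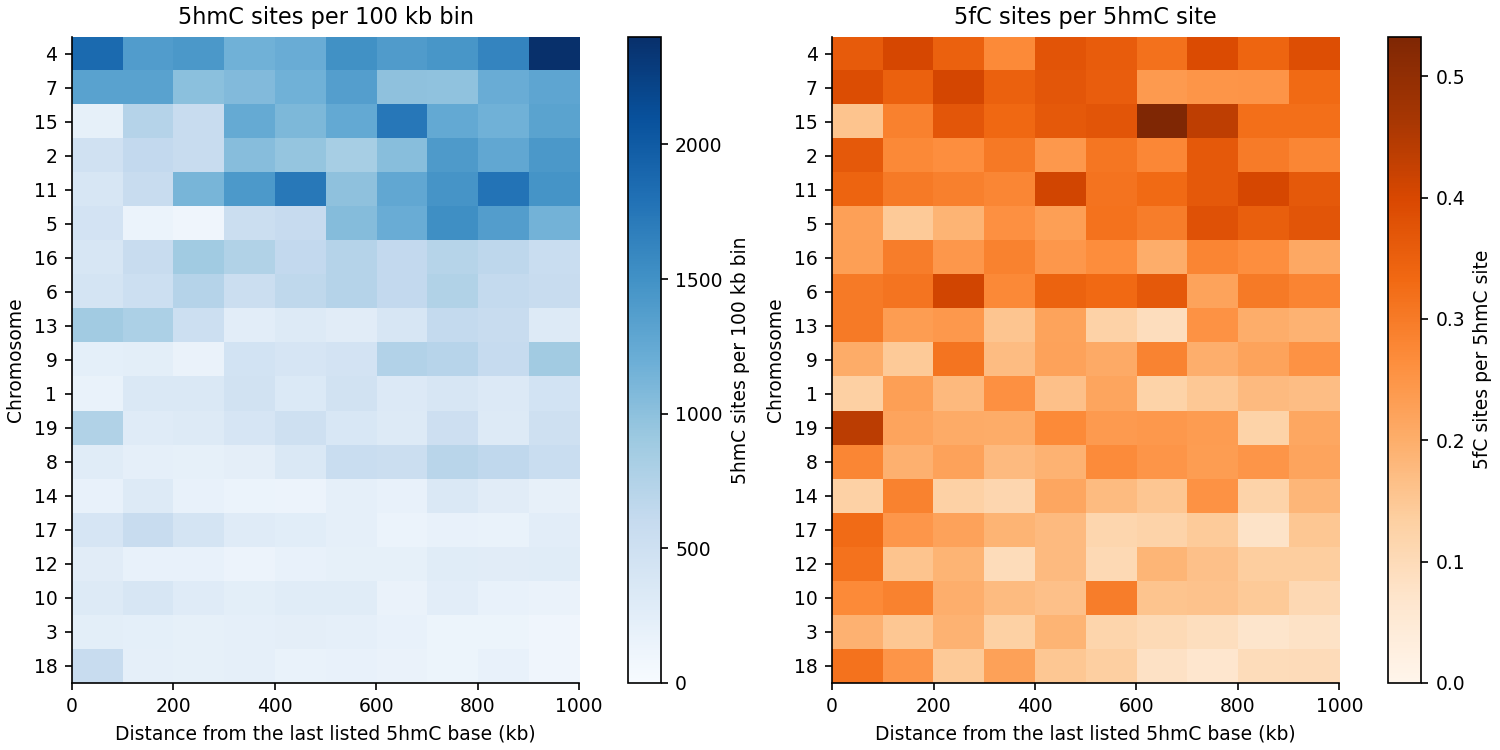
5hmC sites (left) and 5fC sites per 5hmC site (right) in 100 kb bins of the last megabase, 1 row per chromosome in order of the 5hmC ratio and the chromosome tip at the left edge. The rows of chromosomes 4, 11, 7 and 15 hold the most 5hmC sites, with up to 2400 in a bin. On chromosomes 18 and 19 the tip bin is the darkest of its row in both panels.

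5fC per 5hmC, counted in sites, was close to the rest when pooled and varied between ends. The last megabases had 0.295 5fC sites per 5hmC site and the rest 0.303, a ratio of 0.975 (interval 0.963 to 0.987), and the median chromosome was at 0.782. The value was lower than in the rest of the chromosome on 13 of 19 chromosomes, near the 64.7% of windows in the rest that were below it. Below 0.8 times were 10 of 19 ends (52.6%), against 42.4% of windows, and above 1.25 times 1 end, against 7.15% of windows. The highest ratios to the rest were 1.26 on chromosome 15 (0.378 against 0.300), 1.14 on chromosome 4 (0.358 against 0.313) and 1.11 on chromosome 6 (0.315 against 0.282), with chromosome 7 also at 1.11 (0.331 against 0.297). The lowest were 0.522 on chromosome 3 (0.140 against 0.269), 0.598 on chromosome 12 (0.170 against 0.285) and 0.649 on chromosome 17 (0.202 against 0.312).

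Dense ends were also the ones with more 5fC per 5hmC. Across the 19 ends, 5hmC sites and 5fC sites per 5hmC site had a Spearman correlation of 0.92, and across the windows of the rest 0.88. The measures share their 5hmC counts and the correlations describe regions of 1 pooled table. Because the ends were sparse, each was therefore set beside the 1 Mb windows of the rest of all autosomes whose 5hmC site number was within 10% of its own, between 88 and 309 windows per end.

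At like 5hmC density the last megabase had more 5fC per 5hmC on 19 of 19 chromosomes, against 45.0% of the windows of the rest compared in the same way. Pooled, the ends had 0.295 5fC sites per 5hmC site, against 0.261 in windows of like density, a ratio of 1.13 (interval 1.12 to 1.15). The excess ran from 1.01-fold on chromosome 1 to 1.46-fold on chromosome 10, with a median of 1.17. On chromosome 10 the end had 0.210 against 0.143, on chromosome 18 it had 0.194 against 0.136, and on chromosome 14 it had 0.187 against 0.137. On chromosome 4, the densest end, the values were 0.358 and 0.350. Single ends mostly stayed inside the spread of such windows: 6 of 19 lay above their 95th percentile, and the median end was above 85.4% of them.

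The excess was smaller by reads and with deeper sites. Counting reads in place of sites the ratio was 1.05 and 14 of 19 ends were above. In the windows of like density of chromosomes 12, 14 and 18 this count includes sites of very many reads, with 45.5 to 47.7 reads per 5fC site, and those ends were at 0.571, 0.598 and 0.586 by reads but at 1.22, 1.36 and 1.43 by sites. Without sites above 1000 reads the ratio by reads was 1.08 and 17 of 19 were above, and by sites it stayed at 1.13 with 19 of 19 above. With at least 10 reads per site it was 1.07 and 15 of 19 were above. Without sites above 1000 reads, the ends had 16.1 reads per 5fC site, against 15.9 in windows of like density, and 12.6 reads per 5hmC site, against 11.8. With windows of the same chromosome alone, as few as 1 for an end, the ratio was 1.12 and 17 of 19 were above. The share of other windows that would be above was not counted for any of these alternatives. The neighbouring megabase had a ratio of 1.00 with 10 of 19 above, and no other window within 30 Mb of the end exceeded 1.05.

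Counted in sites, the excess was highest in the outermost 300 kb. Among 100 kb bins, each set beside bins of the rest within 10% in 5hmC sites, the last 100 kb had 1.33 times as many 5fC sites per 5hmC site and was above on 18 of 19 chromosomes, against 45.8% of bins in the rest. The next bin had 1.26 times and the bin from 200 to 300 kb 1.25 times. The bin from 300 to 400 kb broke the order at 1.08, below the 1.20 and 1.17 of the 2 bins inside it. From 800 kb inward the ratios were 1.03 and 1.02, and in the second megabase they stayed between 0.977 and 1.06. By reads the last 100 kb had 1.28 times, with 16 of 19 above, and with at least 10 reads per site 1.23 times, with 15 of 19 above. By reads the other 9 bins lay between 0.959 and 1.11, and the bin from 300 to 400 kb was the lowest. The bin from 200 to 300 kb, at 1.09 by reads, was no higher than that from 600 to 700 kb, also at 1.09. Without sites above 1000 reads the last 100 kb had 1.33 times by reads, with 17 of 19 above. The next bins had 1.18 and 1.14, and those farther inside lay between 0.984 and 1.11. The share of other bins that would be above was not counted by reads or with at least 10 reads per site.

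The excess was also seen base by base. Of the 5hmC sites, 22.2% were also listed for 5fC in the last megabases, against 19.7% in windows of like density, and this share was higher on 19 of 19 chromosomes, against 45.4% of windows of the rest. It is close to the measure above by construction, since both count 5fC sites over 5hmC sites. In the rest of the chromosomes it was 23.1%. Among 5hmC dyads, 30.7% had 5fC on either strand in the last megabases, against 26.9% in windows of like density and 32.2% in the rest.

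**Figure D4:**
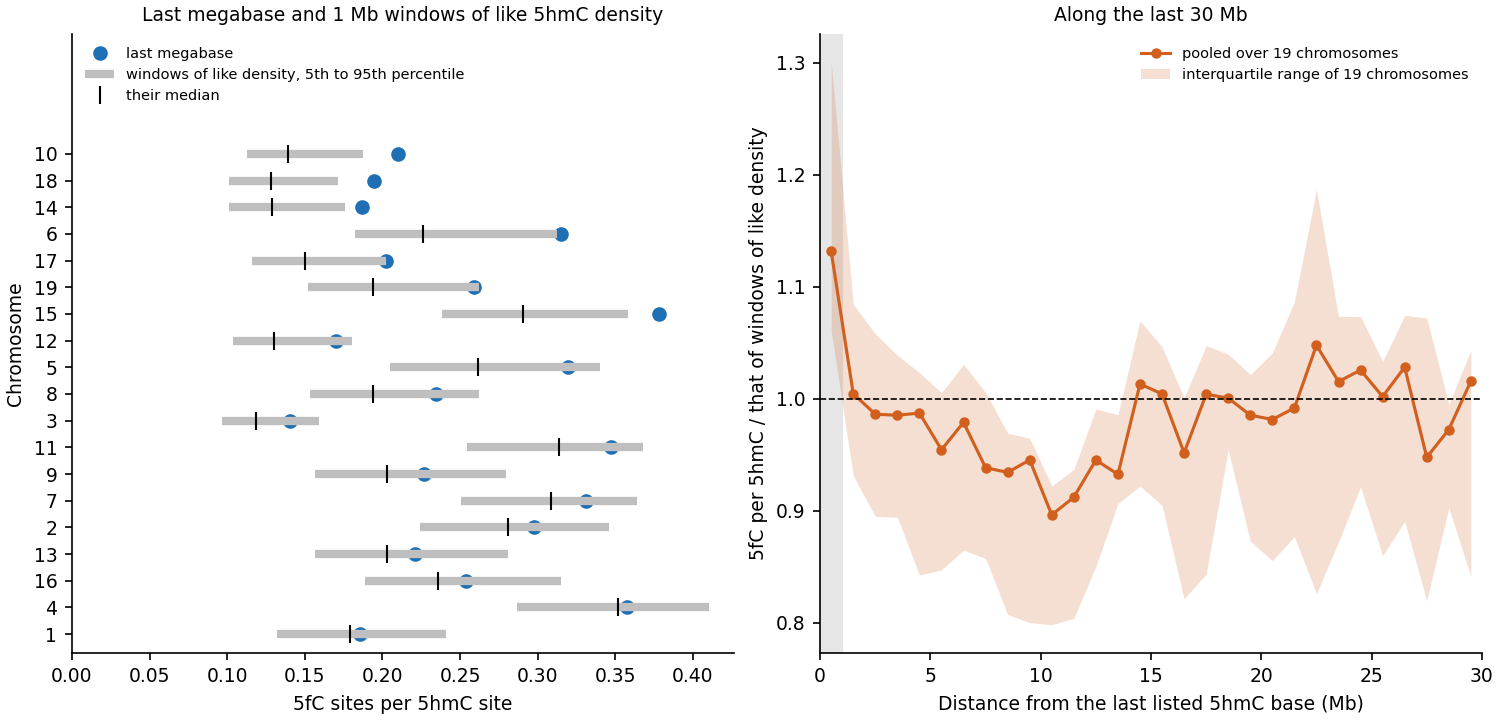
Left, 5fC sites per 5hmC site in each last megabase (blue) beside the 5th to 95th percentile (grey bars) and median (black ticks) of 1 Mb windows of like 5hmC density, 1 row per chromosome. All 19 last megabases lie right of the median. Right, the pooled ratio to windows of like density over the last 30 Mb, with the interquartile range over 19 chromosomes as a band: it is 1.13 in the last megabase (grey area) and 1.00 in the next.

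In the bins of the last megabase with at least the median number of 5hmC sites, 5fC per 5hmC was highest on chromosome 15 from 102794822 to 102894821, at 0.533 (925 5fC and 1737 5hmC sites). Next came the last 100 kb of chromosome 19 (61242343 to 61342342) at 0.437, with 329 and 753 sites, and chromosome 15 from 102694822 to 102794821 at 0.433, with 541 and 1249. The 2 bins on chromosome 15 adjoin each other. The lowest values were 0.199 on chromosome 9 (123274765 to 123374764), 0.200 on chromosome 16 (97617856 to 97717855) and 0.200 on chromosome 13 (119384264 to 119484263). They had 142, 124 and 115 5fC sites.

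Sequence context shifted slightly toward CG at the ends. CG dinucleotides made up 77.8% of 5hmC sites in the last megabases (Wilson interval 77.6 to 78.0%), against 76.3% in the rest (76.2 to 76.3%), a difference of 1.55 percentage points (interval 1.31 to 1.79). For 5fC the shares were 75.8% and 75.1%, a difference of 0.683 points (0.225 to 1.14). On the median chromosome the differences were 2.69 and 1.79 points. The CG share was higher at the end on 16 of 19 chromosomes for 5hmC, against 63.9% of windows, and on 15 for 5fC, against 66.1%. The end of chromosome 3 had the highest 5hmC share, 89.7% against 78.6% in the rest, and that of chromosome 4 the lowest, 72.4% against 75.7%.

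These shares followed density. Across the 19 ends, 5hmC sites and CG share had a Spearman correlation of -0.91, and across windows of the rest -0.88. Beside windows of like density the pooled direction turned round. The CG share of 5hmC sites was 77.8% in the last megabases and 79.1% in those windows, and for 5fC 75.8% and 76.2%. By chromosome, the end was higher than those windows on 5 of 19 for 5hmC and on 10 of 19 for 5fC. At equal read numbers the pooled direction did not turn. With the read classes of the last megabases, the rest would have 76.0% CG for 5hmC and 75.0% for 5fC.

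Outside CG, CA led in the last megabases as elsewhere, with 49.6% of non-CG 5hmC sites, against 48.8% in the rest, and 44.3% of non-CG 5fC sites, against 43.6%. CT made up 28.8% against 29.9% for 5hmC and 34.9% against 36.2% for 5fC. Many non-CG sites have a listed CG dyad 20 to 23 bases downstream on their own strand, and this was less frequent at the ends. For 5hmC the share was 56.6% in the last megabases, against 62.4% in the rest, and for 5fC 53.8%, against 57.2%. It was lower on 16 of 19 chromosomes for both marks, against 63.7% of windows for 5hmC and 67.1% for 5fC. Beside windows of like density the 5hmC share was 56.6% and 58.2%, and the 5fC share turned round, to 53.8% against 51.9%, as it did with the last 2 Mb, by 0.590 points. At the matching distance upstream the 5hmC shares were 5.75% and 5.99%. The lowest 5hmC share of all ends, 30.1% against 62.2%, was on chromosome 12.

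Leaving out non-CG sites with such a dyad, CG made up 89.0% of 5hmC sites in the last megabases and 89.5% in the rest, and 87.1% and 87.6% of 5fC sites. The higher CG share at the ends was thus not seen in the pooled remaining sites. For 5hmC their CG share was lower at the end on 9 of 19 chromosomes, against 37.8% of windows, and higher on 10. The median 5hmC difference was 0.0903 points. For 5fC the share was lower on 15, against 54.8%.

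Pooled over chromosomes, fewer CG dyads were listed on both strands at the ends than in the rest. For 5hmC 38.2% of dyads in the last megabases had both strands listed (Wilson interval 37.8 to 38.5%), against 40.0% in the rest, a difference of -1.81 points (interval -2.18 to -1.43). For 5fC the shares were 19.2% (18.6 to 19.7%) and 20.5%, a difference of -1.31 points (-1.83 to -0.776). The median chromosome differed by more, -6.62 points for 5hmC and -4.10 for 5fC. The share was lower at the end on 13 of 19 chromosomes for 5hmC, against 57.6% of windows, and on 14 for 5fC, against 67.9%. These counts are not far above those shares. It ran from 23.8% on chromosome 3 to 47.0% on chromosome 11 for 5hmC, and from 8.21% to 23.4% on the same chromosomes for 5fC. In the rest of the chromosomes it spanned 37.6% to 46.6% with 5hmC and 18.5% to 26.4% with 5fC.

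The gap was smaller at equal read numbers per dyad. A dyad's reads were summed over its strands, with at least 2 on each listed strand. Its read class therefore depends in part on the pairing itself. With the read classes of the last megabases, the rest would have 38.9% of 5hmC and 19.8% of 5fC dyads on both strands, which leaves differences of -0.714 and -0.648 points. In all 6 read classes of both marks the share was lower at the ends, for example 34.3% against 35.5% of 5hmC dyads with 9 to 16 reads and 26.9% against 27.6% of 5fC dyads with 17 to 32 reads. Beside windows of like density the direction turned round, to 38.2% against 37.0% for 5hmC and 19.2% against 18.2% for 5fC. The end was higher than those windows on 16 of 19 chromosomes for 5hmC and on 15 for 5fC, with no such count made for other windows.

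**Figure D5:**
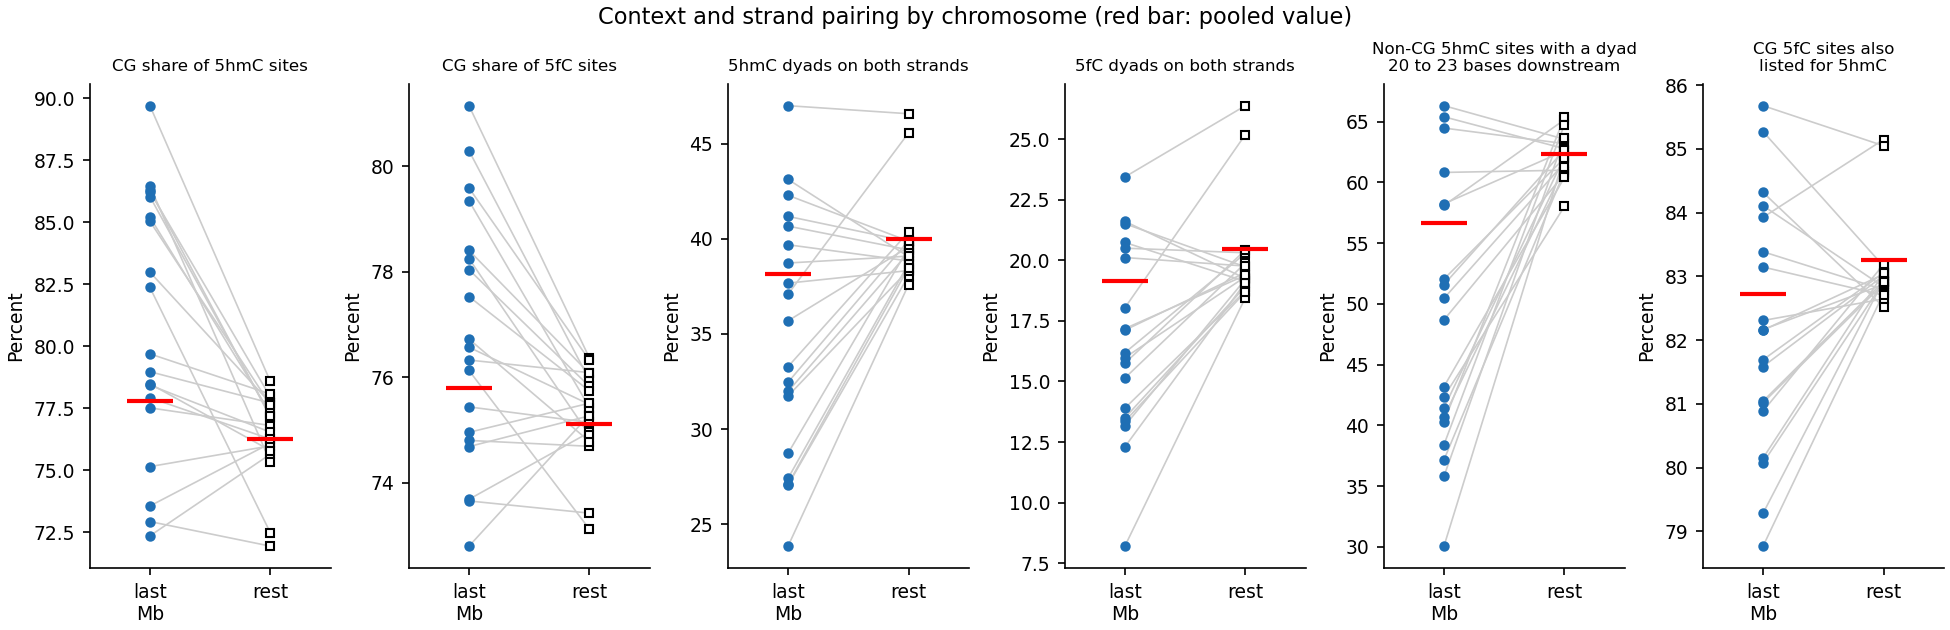
Percentages in the last megabase (blue circles) and the rest (open squares) of each of 19 chromosomes, joined by lines, with pooled values as red bars. The panels give CG shares, dyads on both strands, non-CG sites with a dyad downstream and shared CG sites. The axes do not start at 0. Circles spread wider than squares in all 6 panels, for example from 23.8% to 47.0% against 37.6% to 46.6% for 5hmC dyads on both strands.

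The marks overlapped at the ends about as in the rest at CG and less than in the rest outside CG, with little difference outside CG at like density. Of CG 5fC sites in the last megabases 82.7% were also 5hmC sites at the same cytosine, against 83.3% in the rest, a difference of -0.526 points (interval -0.993 to -0.0692), and -1.22 points on the median chromosome. It was lower on 13 of 19 chromosomes, against 56.6% of windows. Outside CG the shares were 51.5% and 55.8%, lower at the end on 16 of 19 chromosomes, against 66.9% of windows. In windows of like density the share outside CG was 52.2%, and the end was higher than those windows on 9 of 19 chromosomes. Where a dyad had 5fC on 1 strand and 5hmC on 1 strand, the strand was shared in 81.1% of cases in the last megabases, against 79.8% in the rest and 80.2% in windows of like density. The share was higher than in the rest at the end on 17 of 19 chromosomes, against 55.7% of windows. Plus-strand sites were 50.0% of 5hmC sites in both.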

How the data were processed

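The authors deposited 1 table per mark that gives each cytosine a raw read count, with no normalization and 1 column of counts. The submitters' processing notes name the mm9 build and CASAVA, bcl2fastq, cutadapt and Bowtie as tools. The sources used here do not give which libraries were pooled, how sites were chosen or how 5fC was told from 5hmC. The labels of both 5hmC cultures name the 5hmC table, which was treated as that of passage 14. The tables hold 264008048 5hmC and 102305049 5fC reads, with at least 2 per site. PCR reads without molecular identifiers are not independent molecules, so intervals cover counting error only.

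Sites were summed in 100 kb bins and 1 Mb windows counted back from the last listed 5hmC base. The rest of a chromosome began at its first listed 5hmC base, and 10 windows of the rest without 5hmC sites were left out of the background. Densities and ratios have log-normal Poisson intervals, shares Wilson intervals and their differences Newcombe intervals. For values at like density, each end was set beside windows of the rest within 10% in 5hmC sites, weighted by the counts of the end. Ends were named by rank: the 3 highest and 3 lowest in 5hmC density and in 5fC per 5hmC relative to the rest, and likewise 100 kb bins. Regions and measures were chosen with earlier results of these data known. Alternatives covered read minimum, region size, left-out chromosomes, pooling, counting of reads and the windows compared. Counting was tested on simulated data with 20000 dyads and passed 7 of 7 checks. Tables were handled with pandas 2.3.3 and numpy 2.4.6 under Python 3.11.15, and intervals with statsmodels 0.14.6 and scipy 1.17.1.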

Additional observations from a re-analysis of the deposited data

How the results depend on the processing

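Both densities stayed below the rest under every alternative run, and the directions of 5fC per 5hmC, CG share and strand pairing against the whole rest did not hold throughout. Ratios and differences here are last megabase over or minus rest. With at least 10 reads per site, the density ratios were 0.705 (5hmC) and 0.689 (5fC), and the difference in 5hmC dyads on both strands -0.318 points. Counting reads gave 0.710 and 0.690, and length counted from base 1 of the chromosome 0.735 and 0.716. With the last 500 kb the density ratios were 0.629 and 0.610, the 5fC CG share differed by 0.113 points, and dyads on both strands by -2.44 (5hmC) and -2.32 points (5fC). With the last 2 Mb they were 0.895 and 0.905, 5fC per 5hmC turned round to 1.01, CG shares differed by 0.432 (5hmC) and 0.143 points (5fC), dyads on both strands by -0.409 (5hmC) and, turned round, 0.130 points (5fC), and 5fC non-CG sites with a dyad downstream by 0.590 points, also turned round. Without chromosomes 8 and 11, the 5fC density ratio was 0.717, 5fC per 5hmC 0.999 and the 5hmC CG difference 1.29 points. The median chromosome had density ratios of 0.522 and 0.401, 5fC per 5hmC of 0.782, CG differences of 2.69 and 1.79 points, dyad differences of -6.62 and -4.10 points and a difference in CG overlap of -1.22 points. Against windows of like density, 5fC per 5hmC was 1.13 and the CG differences were -1.30 (5hmC) and -0.379 points (5fC), all turned round, as were dyads on both strands (1.21 and 0.995 points) and 5fC non-CG sites with a dyad downstream (1.96 points). Against the stretch 1 to 10 Mb from the end, chosen after seeing the data, the ratios were 0.481, 0.420 and 0.875, the CG differences 4.06 and 1.78 points and the dyad differences -3.91 and -2.96 points. The excess of 5fC per 5hmC at like density, also chosen after seeing the data as a result of its own, was 1.12 within the same chromosome, 1.15 without chromosomes 8 and 11, 1.15 for CG sites alone, 1.07 with at least 10 reads, 1.05 by reads, 1.07 by reads with windows matched on reads, and without sites above 1000 reads 1.13 by sites, 1.08 by reads and 1.07 by reads with windows matched on reads. Leaving out 1 chromosome at a time gave density ratios of 0.657 to 0.743 (5hmC) and 0.621 to 0.737 (5fC), 5fC per 5hmC of 0.945 to 0.995, CG differences of 1.10 to 2.35 and 0.349 to 0.945 points, dyad differences of -2.38 to -1.40 and -1.57 to -0.895 points, an overlap difference of -0.753 to -0.0671 points and an excess at like density of 1.11 to 1.16. The cause of these shifts was not tested. Leaving out sites above 1000 reads moved none of the densities, shares and 5fC per 5hmC set against the whole rest beyond their intervals. No paired analysis was possible because each mark came as 1 pooled column. Without replicate columns, the spread between cultures is unknown. A cytosine that is not listed may be unmodified or too shallow, and 5fC sites in the sparsest ends number as few as 260, so shares there are the least precise.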
